A study of Mus musculus with 8 samples.

Results

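Conjugation of the small ubiquitin-like modifier SUMO was examined in the left and right heart fields of the mouse embryo through 8 genes, *Sumo2*, *Sumo3*, *Sae1*, *Uba2*, *Pias1*, *Senp1*, *Senp2* and *Senp6*, among the 48526 genes of the count table. The 8 genes were chosen because *Sumo2* had more reads on the right than on the left in every embryo. Their left and right values are therefore given as a description, and no p-value is given for them in that comparison. The heart fields, which hold the precursors of the heart tube, were microdissected from 4 wild-type male C57bl6/J embryos at stage E8.5f, named L29-3, L43-5, L46-8 and L49-3, and frozen. Each embryo gave a left and a right library of poly-A RNA, so that the 8 libraries form 4 pairs and no animals were pooled. No treatment or mutation separates the groups.

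SUMO is a small protein that is joined to lysines of other proteins, many of them nuclear. It is made as a precursor, trimmed by SENP proteases, activated by the SAE1 and UBA2 heterodimer and transferred to its targets, often with the help of a ligase such as PIAS1. SENP proteases remove it again, so that the modification is reversible. The pathway is known for its effects on transcription, and several cardiac transcription factors, NKX2-5 and GATA4 among them, are known targets.

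*Sumo2* and *Sumo3* encode modifiers that are nearly the same as mature proteins. Their coding sequences are shown here, together with the pseudogene *Gm10241*, because the reads that can be assigned to each gene depend on how the sequences differ. Sequences are from GENCODE vM21 transcripts (GRCm38), written 5′ to 3′ on the transcript strand. In the first 2 sequences capitals mark bases that differ between *Sumo2* and *Sumo3* in their alignment, and in the *Gm10241* sequence capitals would mark bases that differ from *Sumo2*. Bases that face a gap in the alignment of *Sumo2* and *Sumo3*, 3 in each sequence, are in lower case.
Sumo2 coding sequence, bases 1 to 288: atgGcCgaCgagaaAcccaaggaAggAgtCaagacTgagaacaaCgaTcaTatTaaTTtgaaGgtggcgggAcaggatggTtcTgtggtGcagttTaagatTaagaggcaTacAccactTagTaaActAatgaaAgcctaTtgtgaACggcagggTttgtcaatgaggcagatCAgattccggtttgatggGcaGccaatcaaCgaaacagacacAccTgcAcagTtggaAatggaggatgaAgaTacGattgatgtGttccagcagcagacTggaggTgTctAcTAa
Sumo3 coding sequence, the first 288 of 333 bases: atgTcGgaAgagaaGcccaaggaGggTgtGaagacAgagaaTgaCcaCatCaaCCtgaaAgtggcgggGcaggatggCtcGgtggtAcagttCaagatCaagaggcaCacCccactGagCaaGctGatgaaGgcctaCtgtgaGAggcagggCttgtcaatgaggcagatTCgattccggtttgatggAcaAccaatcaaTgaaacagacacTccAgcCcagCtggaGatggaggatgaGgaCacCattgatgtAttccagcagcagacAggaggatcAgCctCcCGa
Gm10241 transcript, 286 bases: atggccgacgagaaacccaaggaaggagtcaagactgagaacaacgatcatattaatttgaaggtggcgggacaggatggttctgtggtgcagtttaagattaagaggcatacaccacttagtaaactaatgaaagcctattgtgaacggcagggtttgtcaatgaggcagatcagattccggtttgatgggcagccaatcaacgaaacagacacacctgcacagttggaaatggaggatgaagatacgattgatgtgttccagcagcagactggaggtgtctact

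The capitals are spread over the whole length of the pair. Of 285 aligned bases, 233 were identical between *Sumo2* and *Sumo3* and 52 differed (81.8% identity), and the longest identical run was 17 bases, far shorter than the 130-base reads. *Gm10241* has no capital: its 286 bases were identical to the *Sumo2* coding sequence, which lacks a partner there only for its last 2 bases. *Gm10241* is a processed pseudogene at chr16:20176727-20177012, within *Yeats2* on the opposite strand and sharing 0 exon bases with it. *Sumo2* itself lies at chr11:115523102-115536276 on the minus strand and *Sumo3* at chr10:77606097-77618331 on the plus strand. The *Sumo2* coding sequence takes bases 159 to 446 of a transcript of 1051 bases.

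A read that lay whole in the coding part of *Sumo2* could not be told by its own sequence from a read of another gene. Reads were paired, and whether the mate of such a read lay outside that part was not examined. Every 130-base window of that coding sequence, 159 of 159, was found whole in another gene. For *Sumo3*, 0 of the 204 coding windows were found in another gene of the count table. Genes outside that table were not searched, among them *Gm49325*, which overlaps *Sumo3* on the same strand. Over the whole *Sumo2* transcript the share was 159 of 922 windows (17.2%), so that the rest carried windows not found in the other annotated transcripts searched. The genome outside annotated transcripts was not searched. The longest coding transcripts of *Sumo3*, *Sae1*, *Uba2*, *Pias1*, *Senp2* and *Senp6* had 0 windows found in another gene of the count table. That of *Senp1* had 333 of 6446 (5.17%).

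Reads were also given by the table to near-identical genes. Genes with at least 90% identity to a transcript over at least 100 bases were counted as near-identical. *Sumo2* had 14 of them, all pseudogenes, of which 10 had reads, 1043 in all against 2186 on *Sumo2* (32.3% of the sum). *Gm10241* held 765 of these reads, *Gm9836* on chromosome 5 (chr5:24256822-24257037) 94 and *Gm13430* on chromosome 2 (chr2:36389132-36389419) 67. For *Sumo3*, the pseudogene *Smt3h1-ps* had 0 reads, and the transcript *Gm49325*, which shares 346 exon bases with it, was not analysed here. *Sae1*, *Uba2* and *Pias1* had no near-identical gene. *Senp2* had 1, *Gm5402*, with 1 read. *Senp1* shares 462 bases with the antisense gene *Gm26513*, which had 6 reads, and 18 exon bases with *Pfkm* on the opposite strand. *Senp6* holds 245 bases that match *Atp5l*, a gene of the mitochondrial ATP synthase with 608 reads, in reverse orientation, and shares 108 exon bases with the antisense gene *Gm17477*, which had 70. Whether strand was used in counting is not given in the sources used here, so reads of these opposite-strand stretches cannot be told apart.

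Library totals were between 1147446 and 3520753 counts (median 1916167). The left total exceeded the right by 0.58 on the log2 scale in L29-3, by 0.63 in L46-8 and by 0.11 in L49-3, and the ratio was -0.30 in L43-5, so the deeper side was not the same in all embryos. A gene with no read could be present at up to 0.844 to 2.64 CPM (counts scaled by library size), the limit set by 3 counts, and this limit covers counting error only. Values of a library are given as normalized counts (counts divided by DESeq2 size factors). All 8 genes were among the 9744 genes whose normalized count reached 20 in 4 or more libraries, the set in which sides were compared. The 6 markers of the second heart field, *Isl1* among them, were all in that set, and their summed level was 277 to 408 CPM. None of the 10 marker lists examined was higher on the right in all 4 embryos.

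*Sumo2* was higher on the right in each of the 4 embryos, by 1.08-fold to 1.74-fold. Embryo L29-3 had 192.1 normalized counts of *Sumo2* on the left against 336.7 on the right, L43-5 had 187.1 against 266.8, L46-8 had 273.5 against 390.8 and L49-3 had 190.4 against 204.4. The left libraries of L29-3, L43-5 and L49-3 were close to each other and the left library of L46-8 stood above them, so that the ranges of the sides overlapped: the left value of L46-8 exceeded the right values of L43-5 and L49-3. The left mean was 211 ± 41.8 and the right mean 299.7 ± 81.3 (SD, n = 4). In the fit across all genes with the embryo as a block, the log2 fold change of left over right was -0.51 (SE 0.101), which is 1.43-fold more on the right. The error was larger with DESeq2 (-0.50, SE 0.154), and the log2 ratios of the 4 embryos had an SD of 0.285.

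**Figure D1:**
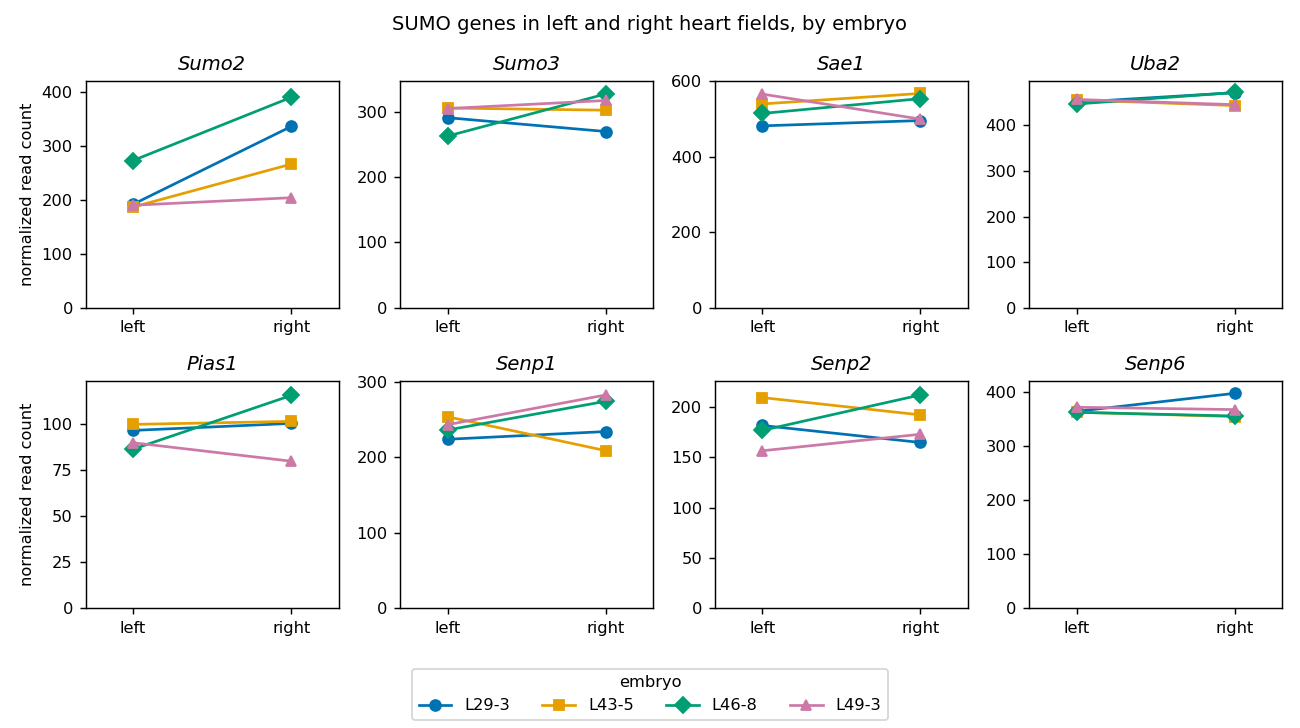
Normalized read counts (y axis, from 0) of the 8 SUMO genes in the left and right heart field (x axis), with a line for each embryo. The *Sumo2* lines all run upward to the right, from 187.1 to 273.5 on the left to 204.4 to 390.8 on the right, whereas the lines of the other 7 genes run both ways or stay flat.

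The size of the measured *Sumo2* ratio varied between embryos, and the counting intervals of L29-3 and L49-3 did not overlap. These intervals cover counting error only. No side of an embryo was sequenced again, so variation from dissection or library cannot be told from a difference between embryos. As a log2 ratio of left to right the difference was -0.80 in L29-3, with a 95% counting interval of -1.06 to -0.55. It was -0.51 (-0.73 to -0.30) in L43-5 and -0.52 (-0.75 to -0.30) in L46-8. In L49-3, where 123 *Sumo2* reads were counted on either side, it was -0.11 (-0.48 to 0.26), and a difference was not detectable at this depth. Among all tested genes, 6.2% were lower on the left in all 4 embryos, and 15.5% of all ratios of single embryos had an interval that excluded equality. Of the 9744 tested genes, 75 (0.770%) had a log2 fold change as low as that of *Sumo2* or lower, and 153 were lower on the left in all embryos by at least the smallest difference of *Sumo2*.

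*Sumo3*, the paralogue, was not higher on the right in every embryo. Left against right, its normalized counts were 291.0 against 269.9 (L29-3), 305.8 against 302.5 (L43-5), 262.9 against 327.4 (L46-8) and 305.0 against 317.4 (L49-3). It was thus higher on the left in 2 embryos and on the right in the other 2, with a left mean of 291 ± 20.04, a right mean of 304 ± 25.1 (SD, n = 4) and a fitted log2 fold change of -0.06 (SE 0.0863). The interval excluded equality in L46-8 (log2 ratio -0.33). The *Sumo2* reads per *Sumo3* read, a ratio within a library that no scaling between libraries touches, went from 0.660 on the left to 1.25 on the right (L29-3), from 0.612 to 0.882 (L43-5), from 1.04 to 1.19 (L46-8) and from 0.624 to 0.644 (L49-3). The ratio was higher on the right in all 4 embryos, by little in L49-3. It holds the *Sumo2* reads for which the genes were picked, so its direction is a description and no separate support.

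The reads on the pseudogenes of *Sumo2* were not higher on the right in every embryo. Normalized counts of *Gm10241*, left against right, were 73.8 against 95.3 (L29-3), 73.7 against 80.0 (L43-5), 101.7 against 90.1 (L46-8) and 119.2 against 101.4 (L49-3). It was higher on the right in 2 embryos and on the left in the other 2, and a difference between its sides did not pass edgeR's quasi-likelihood test (log2 fold change -0.03, SE 0.136, adjusted p = 0.996). *Gm10241* is no member of the 8 genes and was not used to pick them, but its sequence lies in the shared stretch. Its level of 136 to 220 CPM per kilobase of its 286 bases was above that of *Sumo2*, 56.8 to 119 CPM per kilobase of exons, in 8 of 8 libraries. With the longest *Sumo2* transcript as the length, this did not hold in the right library of L46-8. *Sumo2* had 197 there, and *Gm10241* 167. Reads made by *Gm10241* and *Sumo2* reads that were placed on it cannot be told apart here.

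**Figure D2:**
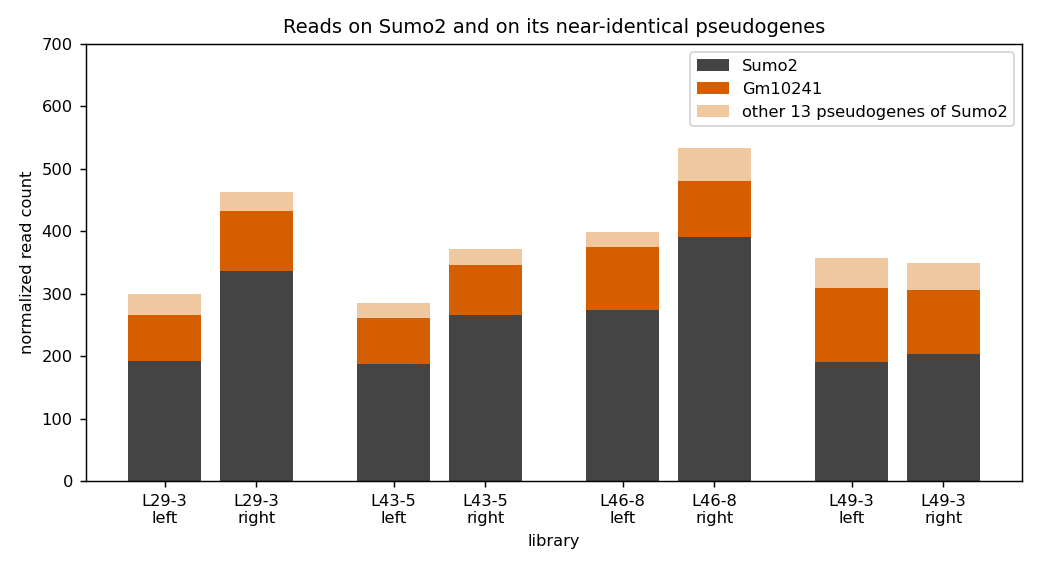
Normalized read counts (y axis) of *Sumo2*, of *Gm10241* and of the other 13 pseudogenes of *Sumo2*, stacked, in each of the 8 libraries (x axis). The dark *Sumo2* part is taller on the right in every embryo, whereas the summed height is taller on the right in 3 embryos and is 357.7 (left) against 349.0 (right) in L49-3.

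With *Sumo2* and its 14 pseudogenes summed, the difference was smaller, and it was not detectable in L49-3. Left against right, the summed normalized counts were 299.1 against 463.0 (L29-3), 285.6 against 371.4 (L43-5), 399.6 against 533.0 (L46-8) and 357.7 against 349.0 (L49-3). The log2 ratios of left to right were -0.62, -0.38, -0.42 and 0.03 in this order of embryos. The direction was toward the right in 3 of 4 embryos, and the fitted log2 fold change was -0.37 (SE 0.0939). Of the 3229 summed reads, 2186 were the *Sumo2* reads for which the genes were picked. The direction and size of the summed difference are therefore a description and no separate support. For the pseudogenes alone, the summed ratios were -0.23, -0.09, -0.18 and 0.20, and the interval of none of them excluded equality. The pseudogenes took, left against right, 35.8% against 27.3% of the summed reads (L29-3), 34.5% against 28.2% (L43-5), 31.6% against 26.7% (L46-8) and 46.8% against 41.4% (L49-3). This share was lower on the right in all 4 embryos, and it was highest on both sides in L49-3. The *Sumo2* reads are part of the sum, so the direction of the share largely follows from how the genes were picked. The exact 95% binomial (Clopper-Pearson) intervals of the left and right share overlapped in each embryo, the left one running from 30.9% to 40.9% and the right one from 22.8% to 32.1% in L29-3, where the shares were farthest apart.

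*Sae1* and *Uba2* encode the subunits of the SUMO-activating enzyme. Normalized counts of *Sae1*, left against right, were 482.3 against 496.4 (L29-3), 540.5 against 568.3 (L43-5), 515.2 against 554.5 (L46-8) and 566.7 against 500.2 (L49-3). Those of *Uba2* were 450.7 against 471.7, 455.7 against 443.4, 446.8 against 472.1 and 456.7 against 445.4 in the same order. Both genes were level across the libraries, *Uba2* most of all, with a left mean of 453 ± 4.61 and a right mean of 458 ± 15.9 (SD, n = 4). Log2 fold changes were -0.02 (SE 0.0704) for *Sae1* and -0.02 (SE 0.0669) for *Uba2*, and no interval of a single embryo excluded equality for either gene. The reads of *Sae1* per read of *Uba2* were between 1.052 and 1.282.

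*Pias1*, a SUMO ligase first known as an inhibitor of activated STAT, had the lowest counts of the 8 genes. It had, left against right, normalized counts of 96.5 against 100.3 (L29-3), 99.7 against 101.4 (L43-5), 86.3 against 115.5 (L46-8) and 89.8 against 79.8 (L49-3). The right library of L46-8 was the highest and the right library of L49-3 the lowest, so the right side enclosed the left. The log2 fold change was -0.10 (SE 0.13), and only the ratio of L46-8 (-0.43) had an interval that excluded equality.

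The proteases *Senp1*, *Senp2* and *Senp6* cleave SUMO from its targets, *Senp6* acting mainly on chains of SUMO2 and SUMO3. Normalized counts of *Senp1*, left against right, were 223.7 against 234.0 (L29-3), 253.6 against 208.6 (L43-5), 236.0 against 274.1 (L46-8) and 243.1 against 282.5 (L49-3). It was higher on the right in 3 embryos, and in L43-5 it was higher on the left with an interval that excluded equality (log2 ratio 0.28). *Senp2* had 181.6 against 164.7, 209.3 against 192.1, 176.6 against 211.9 and 156.4 against 172.8 in the same order, higher on the left in the first 2 embryos and on the right in the other 2. *Senp6* had 364.0 against 397.4, 362.5 against 354.3, 362.2 against 355.3 and 371.6 against 367.3, and apart from the right library of L29-3 all its values lay between 354.3 and 371.6. Log2 fold changes were -0.04 (SE 0.0991) for *Senp1*, -0.02 (SE 0.101) for *Senp2* and -0.01 (SE 0.0706) for *Senp6*.

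**Figure D3:**
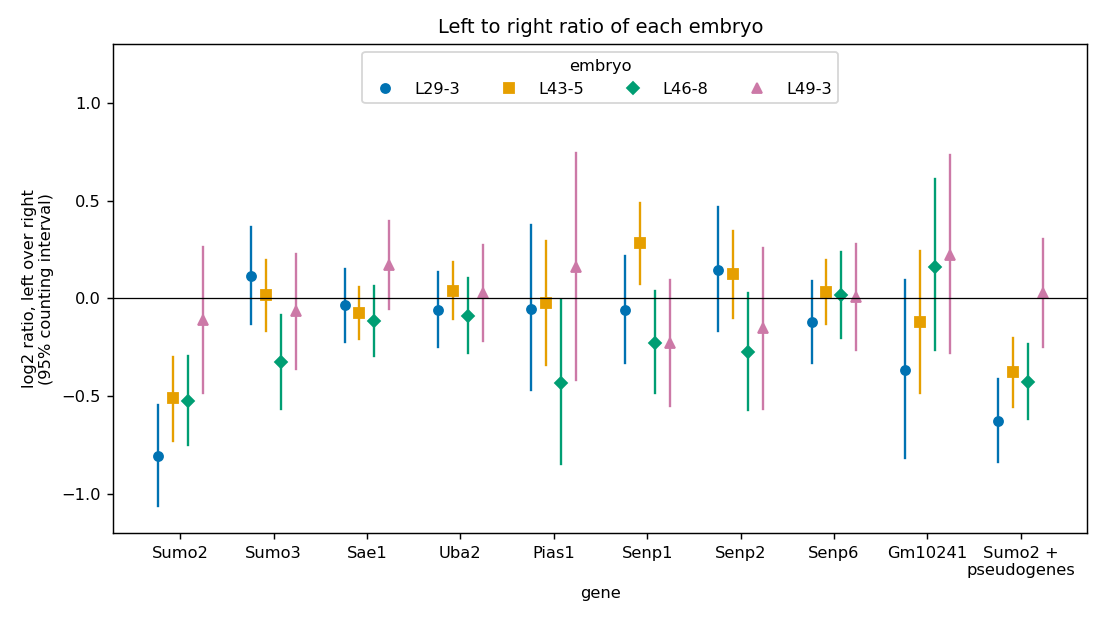
Log2 ratio of left to right (y axis) of each of the 4 embryos for the 8 SUMO genes, *Gm10241* and the sum of *Sumo2* with its pseudogenes (x axis), with 95% counting intervals as bars. All *Sumo2* points lie below 0, from -0.80 to -0.11, whereas the points of each other gene lie on both sides of 0.

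Across the 7 genes other than *Sumo2*, 16 of the 28 ratios of single embryos were higher on the right, and 3 of the 28 had an interval that excluded equality, against 15.5% of such ratios over all tested genes. Their fitted log2 fold changes were between -0.10 and -0.01. All 8 fitted values were negative, as were those of 5010 (51.4%) of all tested genes, but each of the other 7 was positive in a fit with 1 embryo left out, 6 of them without L46-8. The median was -0.03 over the 8 genes and -0.00 over all tested genes, whose median absolute value was 0.0936. For none of the 8 genes were the left and right libraries without overlap, which was the case for 2.51% of tested genes. The counts of the 8 genes are given beside the figures for all genes as a description only, since the genes were picked with this contrast known.

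Levels were compared between genes per length, as CPM per kilobase of all exons of a gene. *Sae1* had the highest level, 107 ± 6.76, followed by *Sumo2* with 77.7 ± 23.3 (SD, n = 8). Next came *Sumo3* with 42.97 ± 3.28 and *Uba2* with 39.9 ± 0.997. Some neighbours in this order were not separated: *Sae1* was above *Sumo2* in 6 of 8 libraries and *Sumo3* above *Uba2* in 6, whereas *Sumo2* was above *Sumo3* in 8. The proteases and the ligase were lower, *Senp6* at 27.6 ± 1.01, *Senp2* at 14.0 ± 1.54, *Senp1* at 10.9 ± 1.12 and *Pias1* at 7.44 ± 0.848, each above the next in 8 of 8 libraries. With the longest transcript as the length, *Uba2* (93.2) stood above *Sumo3* (59.8), and the spread of *Sumo2* stayed the widest of the 8 genes. With the reads of its pseudogenes added, *Sumo2* reached 116 ± 25.1 per kilobase of its own exons (SD, n = 8) and was above *Sae1* in 4 of 8 libraries, so which of these genes had the higher level cannot be told.

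**Figure D4:**
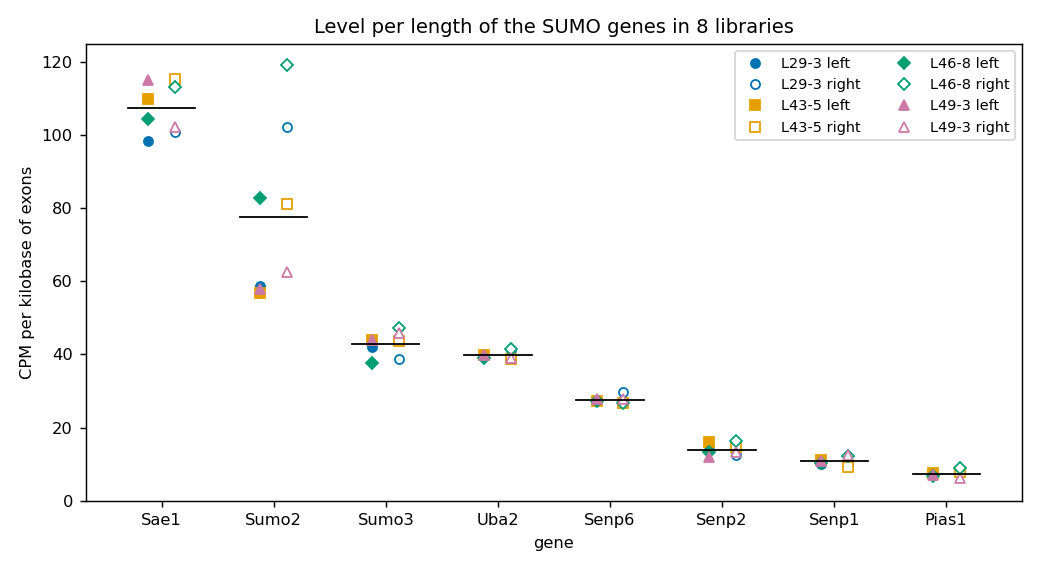
Level in CPM per kilobase of exons (y axis, from 0) of the 8 SUMO genes (x axis), with filled symbols for left and open symbols for right libraries and a bar at the mean of the 8 libraries. *Sumo2* spans 56.8 to 119, the widest range shown, and *Uba2* 38.8 to 41.4.

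The embryos were also compared with each other, a contrast that was not used to pick the genes. Over both sides, *Sumo2* had a mean normalized count of 264 (L29-3), 227 (L43-5), 332 (L46-8) and 197 (L49-3). By these reads alone, embryo L46-8 had the most and L49-3 the least. With the reads of its pseudogenes added, L49-3 was above L43-5 on the left, 357.7 against 285.6. On the right it was below, 349.0 against 371.4. edgeR's quasi-likelihood test of the embryo terms gave *Sumo2* an adjusted p of 0.155 over all genes, so the difference did not pass the correction. With no filter on low counts it was 0.000101, which passed. With near-identical genes summed, the same test gave an adjusted p of 0.303. Without L46-8 the adjusted p was 0.471, and *Sumo2* no longer passed at an unadjusted p of 0.05. For the other 7 genes the adjusted p was between 0.731 and 0.992. Of the 8 genes, 1 had an unadjusted p of at most 0.05, against 10% of tested genes, and 0 had an adjusted p under 0.05, against 0.174%; DESeq2 and limma-voom also gave 0 and 1. With 1 animal per embryo, the animal, its exact stage and its dissection cannot be told apart.

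The rest of the SUMO pathway was compared by a list of 23 other genes, of which 21 were tested. The regulator *Rwdd3* and the nuclear body gene *Sp100* were below the filter. With edgeR's quasi-likelihood test, 11 were higher and 10 lower on the left, 0 passed the threshold of the study (a change of 1.2-fold or more and an unadjusted p not above 0.05), which 3.05% of all tested genes passed. At an unadjusted p of at most 0.05 there were 0 as well, against 4.36% of all tested genes, also with DESeq2 and limma-voom. Log2 fold changes ranged from -0.25 for *Pias4* to 0.20 for *Pias3*, ligases of the same family as *Pias1* and named here for being the extremes. The smallest adjusted p of the list was 0.987 in edgeR, and 0.0103% of all tested genes had one under 0.05. The median log2 fold change was 0.01, against -0.00 over all tested genes. In all 4 embryos, 1 gene of the list was lower on the left, the protease gene *Senp3* (log2 fold change -0.11). Another, *Senp5* (0.12), was higher on the left in all 4. Over the 9744 tested genes these counts were 604 and 602.

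The 4 genes of the list with the highest mean normalized counts were *Trim28* (1830), a corepressor with SUMO ligase activity, *Rangap1* (670), the first SUMO target described, *Ranbp2* (594), a ligase of the nuclear pore, and *Zmiz1* (588), a PIAS-like coactivator. Their log2 fold changes were 0.01 (SE 0.0633), -0.03 (SE 0.0655), -0.04 (SE 0.0635) and 0.13 (SE 0.0767). Some *Rangap1* transcripts hold stretches near-identical to 652 other genes. Of the 2904 windows of 130 bases of its longest coding transcript, 0 were found whole in another gene of the count table. A few genes of the list crossed the threshold with 1 embryo left out, with adjusted p-values in edgeR of 0.969 to 0.999. They were *Nsmce2* without L29-3 (log2 fold change 0.45), *Uspl1* without L43-5 (-0.32) and *Rnf111* without L46-8 (0.28), and none of them passed with all embryos.

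**Figure D5:**
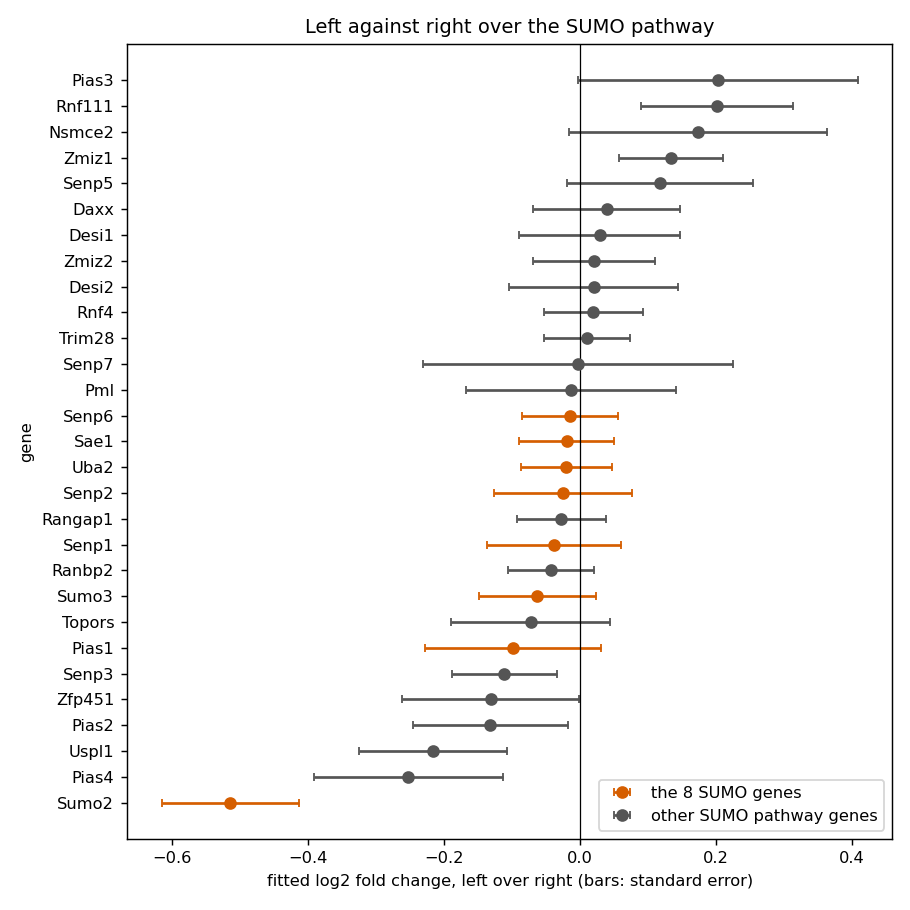
Fitted log2 fold change of left over right (x axis) with its standard error for the 8 SUMO genes and the 21 other tested genes of the pathway (y axis). *Sumo2* at -0.51 is the lowest, and the other genes lie between -0.25 and 0.20.

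Of 14 genes of ubiquitin and other ubiquitin-like modifiers, 13 were tested. Log2 fold changes ran from -0.09 to 0.20, 6 of them toward the left and 7 toward the right, and with edgeR 0 passed the threshold of the study (3.05% of all tested genes), 0 had an unadjusted p of at most 0.05 (4.36%) and the smallest adjusted p was 0.987. The most abundant were *Ubb* (mean normalized count 1783), *Rps27a* (704), *Fau* (661) and *Ube2m* (374), with log2 fold changes of -0.04 (SE 0.0594), 0.01 (SE 0.119), -0.09 (SE 0.0701) and -0.09 (SE 0.0743). All but *Ube2m*, the conjugating enzyme of NEDD8, whose copies were not searched, also had near-identical genes with reads. Of 7 cardiac transcription factors known as SUMO targets (*Nkx2-5*, *Gata4*, *Srf*, *Myocd*, *Smad4*, *Tbx5* and *Isl1*), 7 were tested and 0 passed the threshold between the sides, against 3.05% of all tested genes, with log2 fold changes from -0.30 for *Nkx2-5* to 0.00 for *Srf*. Between embryos, 3 of the 7 had an unadjusted p of at most 0.05 (10% of all tested genes), and *Tbx5* had an adjusted p of 0.0201 in edgeR, where 0.174% of all tested genes were under 0.05. The summed level of the 3 markers of the juxta-cardiac field, a list that also holds *Tbx5*, ranged from 25.3 to 224 CPM over the libraries.

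Some marker genes of other tissues varied between the sides as well. The summed level of 7 neural tube markers, of which 6 were tested, was 75.4 to 308 CPM on the left and 159 to 417 CPM on the right. It was higher on the right in 3 of 4 embryos, with log2 ratios of left to right of 0.30 (L29-3), -0.61 (L43-5), -1.40 (L46-8) and -0.44 (L49-3), and all 6 tested markers were lower on the left in the fit, 2 of them past the threshold of the study, which 1.42% of all tested genes passed toward the right. The part of neural tube cells in the *Sumo2* counts was not tested. In bulk samples, fewer cells of a type and less RNA per cell cannot be told apart. In each of the 4 embryos the summed level of endothelial markers was higher on the left, with log2 ratios of 0.05, 0.03, 0.03 and 0.54 in the same order, although 2 of the 5 tested markers were lower on the left in the fit and 0 passed the threshold. Cardiomyocyte markers swung both ways, with log2 ratios of 0.10, -0.53, 0.78 and -1.81, and all 5 tested were lower on the left in the fit, 0 of them past the threshold. Paraxial mesoderm markers had log2 ratios of 0.27, -0.63, -0.42 and 0.19, and all 4 tested were lower on the left in the fit, again with 0 past the threshold. None of the lists had a marker without reads in all libraries.

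The genes with the pattern most like that of *Sumo2* across the 8 libraries, by Pearson's r of log2 CPM, were *Fdx1l* (0.94), *Cycs* (0.94), *Kank3* (0.93), *Gpx1* (0.92) and *Wsb2* (0.92). The closest of the other SUMO genes were *Uba2* and *Pias1*, each with r = 0.59, ranked 552 and 554. *Sumo3* had r = -0.11 and *Gm10241* r = 0.10. With the mean of each embryo taken away, *Psmd12*, *Prpf3*, *Zfp746*, *Kank3* and *Zranb2* led with r of 0.992 to 0.999. After that step only 4 values vary freely. These values describe 8 libraries that share embryos and depth, and the leading genes were picked from 9744.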

How the data were processed

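Poly-A RNA of both heart fields of 4 embryos was sequenced as 8 libraries. The authors mapped paired reads of 130 bases with Hisat2 (GRCm38), removed duplicates and counted reads per gene with featureCounts. They gave a high number of duplicates as the reason for the removal. Its effect on short transcripts and on libraries of unlike depth was not tested. The deposited values are the resulting counts for 48526 genes, not normalized. The libraries kept strand, per the labels. The versions of Hisat2 and featureCounts, the strand setting of the counting and its treatment of reads that fit several places are not given in the sources used here, and the last of these bears on *Sumo2* and its pseudogenes. Total counts were 1147446 to 3520753 per library.

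Sides were compared with edgeR 4.0.16 (R 4.3.3; TMM, quasi-likelihood test, embryo as a block) over the 9744 genes whose DESeq2-normalized count reached 20 in 4 or more libraries, and p-values were adjusted by Benjamini-Hochberg over them. Standard errors of edgeR values were derived from the quasi-likelihood statistic of the fit. The libraries of an embryo come from the same animal, which is the source of the pairing, and the correlation of their deviations from the side means was 0.16, 0.19, -0.01 and 0.44. No 2 libraries agreed within sampling noise (smallest chi-square per degree of freedom 1.93). The embryos are separate animals. A pseudocount of 0.5 was added to TMM-normalized CPM for the ratios of single embryos, and their exact 95% intervals cover counting error only. Near-identical genes were found with blastn 2.17.0 among GENCODE vM21 transcripts. On simulated data for the left and right comparison (9744 genes, 200 changed by 1 on the log2 scale), 90.5% of the changed genes were recovered by edgeR, 91% by limma-voom and 79% by DESeq2, beside 7, 9 and 1 false calls. The simulated data held no differences between embryos. Smaller changes were not simulated, so recovery at the sizes reported here is not known.

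The 8 genes and all lists were chosen with earlier results of these data known, and some listed genes are not reported here. Named genes are the 8 genes, the genes of the other lists past the threshold or with the 4 highest means, the 3 near-identical genes with the most reads, and the 5 genes most like *Sumo2* by each measure. The extremes *Pias3* and *Pias4*, *Senp3* and *Senp5*, the cardiac genes at the ends of the range and *Tbx5*, and the genes that crossed the threshold without 1 embryo were named after their values were seen. Results were recomputed with DESeq2 1.42.0 or limma-voom (limma 3.58.1), with DESeq2 size factors or library size alone, without a filter or with 10 counts required in each library, without the embryo block, with each embryo left out, with near-identical genes summed, and with the longest transcript as the length. The authors' comparisons, in situ data and mutants were not analysed here.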

Additional observations from a re-analysis of the deposited data

Results flagged for a closer look

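Among 24 groups of 4 values (the counts of each side and the ratios of each of the 8 genes), 2 held a value far from the other 3, where chance gives about 1 in 20. The *Sumo2* count of the left library of L46-8, 273.5 normalized counts, was above the other left libraries (gap over range 0.942). The log2 ratio of *Senp6* in L29-3, -0.12, was below those of the other embryos (gap over range 0.834).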

How the results depend on the processing

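The *Sumo2* log2 fold change was negative in 12 of 12 alternatives, from -0.61 to -0.37, and with an embryo left out it ran from -0.61 (without L49-3) to -0.41 (without L29-3). The genes were picked because *Sumo2* was higher on the right in every embryo. The sign was therefore largely set in advance, and only the size is described. Without the replicate block the *Sumo2* value was -0.51 (SE 0.178), and without the block 0 of the other pathway genes passed the threshold of the study, as with it. The other 7 genes kept values between -0.17 and 0.06 over 84 alternative fits, and none moved by more than its spread between embryos. Leaving out an embryo can hardly shift a value by that much, so this bound is a weak check. Of the other pathway genes 0 passed the threshold, and 0 to 1 with an embryo left out. Over all tested genes 297 passed, against 687 with no filter and 59 with DESeq2. The number of the 8 genes that differed between embryos was 0, and 1 with no filter, where *Sumo2* had an adjusted p of 0.000101; over the alternatives this p ran from 0.000101 to 0.700. The causes of these shifts were not tested. *Sumo2* had 123 to 500 reads per library, and L49-3 the fewest, which limits the precision of its ratio most.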
